A study of Homo sapiens with 4 samples.

Results

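The 8 long noncoding RNAs (lncRNAs) followed here through a miRNA pulldown are 4 known as nuclear RNAs (MALAT1, NEAT1, KCNQ1OT1 and FTX) and 4 known as cytoplasmic or of mixed location (NORAD, OIP5-AS1, TUG1 and FGD5-AS1). They were taken by their Ensembl identifiers from a table of 60554 genes, and for all 8 the position on GRCh38 gave the same name (for FGD5-AS1 only under the loosest of the naming steps). The sorting by location comes from general knowledge, since no library here measures where an RNA lies. The members were chosen by measured values, their counts and ratios in these same libraries, so all their values are descriptions and none is tested. All libraries came from IGROV1-R10, a derivative of the human ovarian cancer line IGROV1 selected for cisplatin resistance. Cells were transfected at 60 nM with a biotin-carrying miR-491-5p duplex or with a biotin-carrying control miRNA of the worm (cel-miR-65 in the design text). Cell debris and nuclei were spun out of a mild-detergent lysate, 10% of which was kept as the input, and the remainder spent 4 h on streptavidin beads, which after 5 washes gave the pulldown. The 4 groups were thus the miR-491-5p pulldown, the miR-491-5p input, the control pulldown and the control input, each with 1 library made from the RNA of 3 experiments.

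A miRNA loaded into an Argonaute protein finds RNAs mainly by pairing of its seed, the bases near its 5′ end, and biotin on the miRNA lets beads retain the RNAs that travel with it. Argonaute acts chiefly in the cytoplasm, where NORAD is bound by the Pumilio repressor PUM2, and where OIP5-AS1, also called cyrano, pairs with miR-7 and binds HuR. MALAT1 collects in nuclear speckles, NEAT1 is the scaffold of paraspeckles, KCNQ1OT1 is an imprinted antisense RNA that silences genes beside it, and FTX belongs to the X-inactivation centre and hosts miRNAs. TUG1 is found both in the nucleus and in the cytoplasm. The mature miRNA that was transfected is shown because every comparison rests on it, with its seed (bases 2 to 8) in capitals, as RefSeq gives it on GRCh38.p14 (plus strand, chromosome 9, 20716120 to 20716141).
hsa-miR-491-5p: aGUGGGGAacccuuccaugagg
An RNA with a perfect seed match would carry the letters UCCCCAC. The transcripts of the 8 lncRNAs were not searched for them here.

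Over all genes there were 61705443 counts in the miR-491-5p pulldown, 59588552 in its input, 62582646 in the control pulldown and 47679684 in the control input. Counts were divided by DESeq2 size factors, and log2 ratios were taken on these normalised counts plus 1. A gene was called past 2-fold when its ratio reached 2-fold in either direction and its 95% counting interval excluded 0. Intervals cover counting error only, since each group has 1 library and the labels name no molecular identifiers, and no difference between groups has a replicate check. The genes compared were the 12662 whose normalised count averaged 50 or more, and all 8 lncRNAs were among them. All 8 listed ovarian carcinoma markers, among them PAX8, WT1, KRT8 and KRT18, passed that minimum, and their normalised counts summed to 87022 and 120728 in the miR-491-5p pulldown and input and 96601 and 153065 in the control pulldown and input. The control input stood apart in 6 listed hepatocyte markers, whose summed normalised count was 2977 there against 25.1, 15.7 and 15.1 in the miR-491-5p pulldown, the miR-491-5p input and the control pulldown. In the miR-491-5p input FGA, FGB and HP were at 0. The 5 fibroblast markers summed to 37.2 and 288 in the miR-491-5p pulldown and input, and to 37.3 and 744 in the control pulldown and input. The 4 immune markers summed to 17.0 and 14.6 in the miR-491-5p pulldown and input, and 16.0 and 46.3 in the control pulldown and input. The part of such RNA in the ratios that use the control input was not tested. The comparisons of the pulldowns with each other, and of the miR-491-5p pulldown with its own input, take no counts from that library. It did enter the size factors and the count minimum, which used all 4 libraries.

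The 8 lncRNAs differed widely in level, and not all were abundant. Levels of different genes are given as normalised counts per kb of exon, scaled to the mean library of 57.25 M counts (counts per kb per M). NORAD was the highest of the 8 in every library, with 380 and 125 in the miR-491-5p pulldown and input and 1128 and 108 in the control pulldown and input. In the control pulldown it ranked 8 among the 12662 genes by this measure. MALAT1 followed with 109 and 48.6 in the miR-491-5p pulldown and input and 97.0 and 37.2 in the control pulldown and input, and FGD5-AS1 stood above it in the control pulldown. NEAT1 (0.850 to 2.27), FTX (0.220 to 1.17) and KCNQ1OT1 (0.0399 to 0.196) were the lowest in all 4 libraries, in that order. KCNQ1OT1 is annotated as a single exon of 91667 bases, and in the control input it ranked 536 among 539 lncRNA genes. Although nuclei had been spun out, MALAT1 ranked 8 among those lncRNA genes in the miR-491-5p input and 9 in the control input. In the control input TUG1 (13.8, interval 13.4 to 14.2) and FGD5-AS1 (13.7, 13.2 to 14.1) could not be told apart by counting error on this measure. OIP5-AS1 and TUG1 were close in level in both pulldowns, at 25.4 and 22.4 with miR-491-5p and 31.0 and 32.7 with the control miRNA. Together the 8 took 0.430% of all counts in the miR-491-5p pulldown (Wilson interval 0.428 to 0.431) against 0.160% in its input, and 0.862% in the control pulldown (0.859 to 0.864) against 0.130% in its input.

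**Figure D1:**
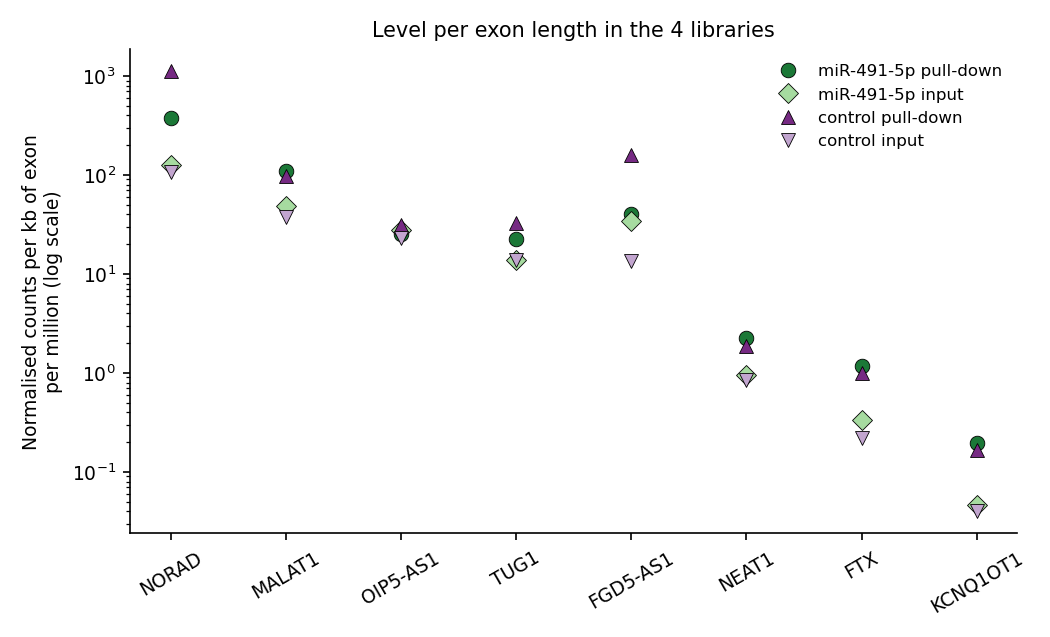
Level of each lncRNA as normalised counts per kb of exon and per M counts, on a log axis, ordered by the level in the control input; each symbol is 1 library. NORAD is the highest in every library (108 to 1128), and NEAT1, FTX and KCNQ1OT1 lie lowest.

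Reads that fall on 2 genes were left out of the deposited counts, and strand was not used, so part of some lncRNAs could not be counted. Other genes covered 23.3% of the exon bases of MALAT1, 21.5% of TUG1, 18.3% of FTX, 6.45% of FGD5-AS1, 3.71% of OIP5-AS1, 2.13% of NEAT1, 1.23% of KCNQ1OT1 and none of NORAD. Per kb of the remaining bases, a measure added after the data were seen, MALAT1 had 143 in the miR-491-5p pulldown, and TUG1 with 28.5 stood above OIP5-AS1 with 26.4. The order of the 8 in the other 3 libraries was the same by both measures. In the control input TUG1 and FGD5-AS1, close per kb of all exon bases, were at 17.6 and 14.6 per kb of the remaining bases. Without strand, unspliced reads of KCNQ1, the sense partner within which KCNQ1OT1 lies, would count for KCNQ1OT1; KCNQ1 itself held at most 6 counts in any library.

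The 4 nuclear lncRNAs were all more than 2-fold above their input on both kinds of beads. MALAT1 (chromosome 11, 65497762 to 65506516) had 54770 normalised counts in the miR-491-5p pulldown against 24337 in its input, and 48630 in the control pulldown against 18636 in its input. Its normalised count was thus higher in both pulldowns than in either input, with log2 pulldown over input of 1.17 (1.15 to 1.19) for miR-491-5p and 1.38 (1.36 to 1.41) for the control. NEAT1, its neighbour on chromosome 11 (65422774 to 65445540), had 2962 against 1236 with miR-491-5p and 2421 against 1108 with the control, pulldown first. Its log2 bead values were 1.26 (1.17 to 1.35) and 1.13 (1.02 to 1.24), and the intervals overlap.

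KCNQ1OT1 (chromosome 11, 2608328 to 2699994) and FTX (chromosome X, 73963955 to 74293574) were scarcer and stood further above their inputs. KCNQ1OT1 had 1030 normalised counts in the miR-491-5p pulldown against 244 in its input, and 884 in the control pulldown against 209 in its input. Its log2 bead value was 2.07 with miR-491-5p (1.87 to 2.27) and 2.07 with the control (1.83 to 2.31); the values coincide. FTX had 510 raw counts in the miR-491-5p pulldown, 112 in its input, 397 in the control pulldown and 60 in the control input. As normalised counts these were 412 against 117 and 353 against 77.1, giving log2 bead values of 1.81 (1.51 to 2.10) and 2.18 (1.79 to 2.57), whose intervals overlap. Part of FTX overlaps JPX, a lncRNA of the opposite strand, which itself lay below its input at -0.46 and -0.09.

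**Figure D2:**
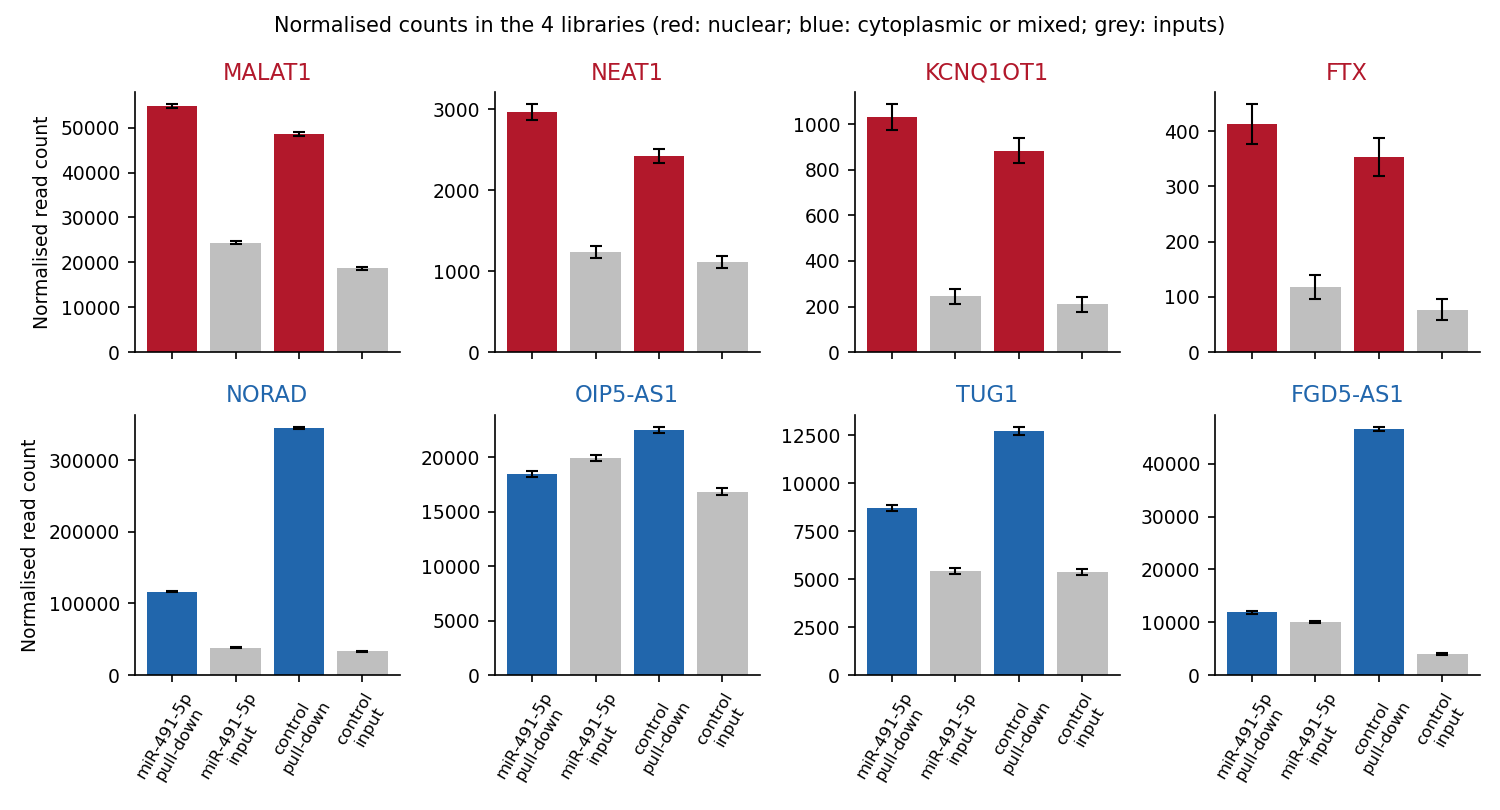
Normalised read count of each lncRNA in the 4 libraries, pulldowns in colour and inputs in grey, with 95% counting intervals as error bars; each bar is 1 library and the vertical scales differ. The 4 nuclear lncRNAs in the upper row have pulldowns of similar height, while NORAD and FGD5-AS1 are far higher in the control pulldown (344877 and 46514) than in the miR-491-5p pulldown (116194 and 11840).

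The cytoplasmic or mixed lncRNAs were less alike. NORAD (chromosome 20, 36045622 to 36050960) had 116194 normalised counts in the miR-491-5p pulldown against 38155 in its input, and 344877 in the control pulldown against 33117 in its input. It exceeded its input on both kinds of beads, at 3.05-fold over input with miR-491-5p and 10.4-fold with the control (log2 1.61 and 3.38), and alone took 0.621% of all counts in the control pulldown. FGD5-AS1 (chromosome 3, 14920347 to 14948424) had 11840 against 10016 with miR-491-5p and 46514 against 4014 with the control, pulldown first. On the control beads it was 11.6-fold above input (log2 3.53, 3.48 to 3.59), the highest bead value of the 8, while with miR-491-5p it was at 0.24 (0.20 to 0.28).

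TUG1 (chromosome 22, 30970677 to 30979395) lay nearer in its ratios to NEAT1 and MALAT1 than to NORAD (Euclidean distances of 0.61, 0.63 and 2.34 over the input ratio and both bead values). Its distance to OIP5-AS1 was 1.17, less than to the nuclear FTX (1.58) and KCNQ1OT1 (1.63), and to FGD5-AS1 it was 2.68. It had 8699 normalised counts in the miR-491-5p pulldown against 5419 in its input, and 12697 in the control pulldown against 5377 in its input. Its log2 bead values were 0.68 (0.63 to 0.73) with miR-491-5p, below 2-fold, and 1.24 (1.19 to 1.29) with the control. Scaling by total counts put the first at 1.00, just past 2-fold. OIP5-AS1 (chromosome 15, 41283990 to 41309737) had 18447 against 19934 with miR-491-5p and 22469 against 16842 with the control, pulldown first. Its 4 libraries lay closer together than those of any other member, and its log2 bead values were -0.11 (-0.14 to -0.08) and 0.42 (0.39 to 0.45). Under total counts the first became 0.21, so the side of 0 on which OIP5-AS1 lies on the miR-491-5p beads depends on the scaling.

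Read against all genes, 5 of the 8 were past 2-fold higher on the miR-491-5p beads, where 5.34% of all genes were, and 7 of 8 on the control beads, where 8.61% were. None of the 8 was past 2-fold lower with either, against 4.96% and 10.0% of all genes. MALAT1, NEAT1, KCNQ1OT1, FTX and NORAD were past 2-fold higher on both, against 337 of all genes (2.66%) and 50 of 531 other named lncRNA genes (9.42%). On both kinds of beads 2.84% of all genes were past 2-fold lower, and none of the 8 was. The 8 had a median bead value of 1.22 on the miR-491-5p beads and 1.73 on the control beads, against -0.15 and -0.15 for all genes and 0.00 and 0.12 for the other lncRNA genes. Genes with at least 5000 bases of exon, as all 8 have, had medians of -0.04 and 0.03. Under total counts, which raised the all-gene median by 0.32 on the miR-491-5p beads and by 0.14 on the control beads, 1314 genes were higher and 130 lower with miR-491-5p (676 and 628 under size factors), and 1393 were higher and 821 lower with the control (1090 and 1268 under size factors).

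**Figure D3:**
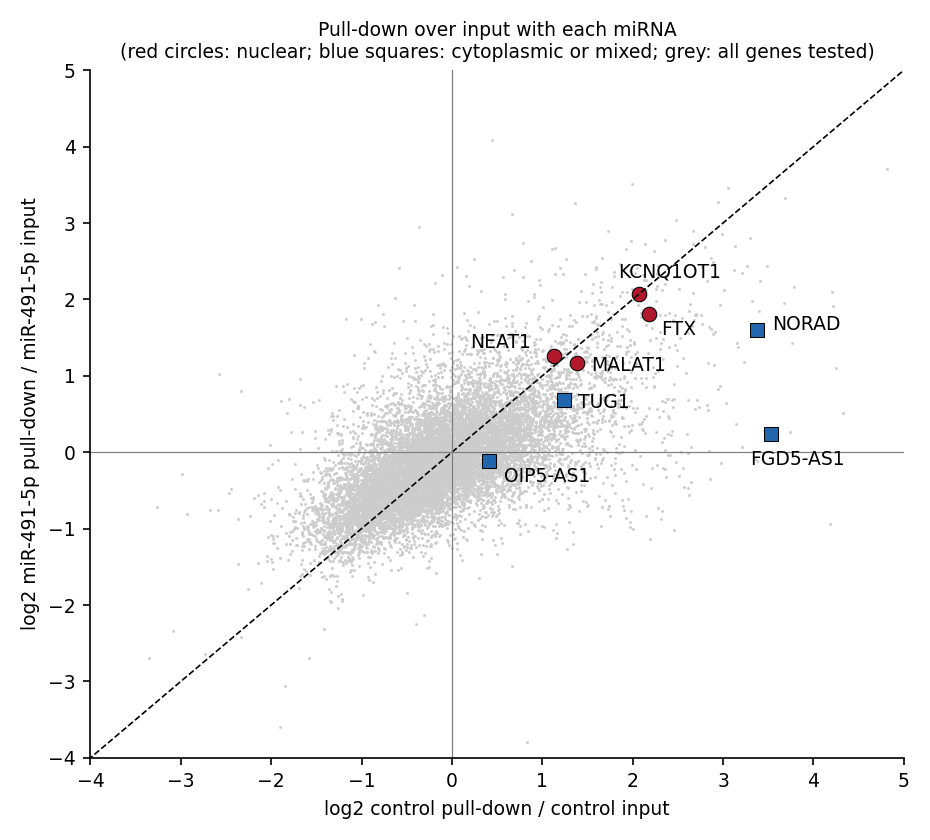
Log2 pulldown over input on the miR-491-5p beads (vertical axis) against the control beads (horizontal axis), with each grey point 1 of the genes tested, 11 of which lie outside the axes, and the dashed line marking equal values. The 4 nuclear lncRNAs lie near the dashed line between 1.13 and 2.18, and NORAD and FGD5-AS1 lie below it at control values of 3.38 and 3.53.

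In the direct comparison of the pulldowns the 4 nuclear lncRNAs lay slightly above 0 and the 4 cytoplasmic or mixed ones below it. The log2 pulldown ratio, miR-491-5p over control, was 0.17 (0.16 to 0.19) for MALAT1, 0.29 (0.22 to 0.36) for NEAT1, 0.22 (0.10 to 0.34) for KCNQ1OT1 and 0.23 (0.04 to 0.41) for FTX. These 4 values span 0.12 on the log2 scale and all lie slightly above the median of all genes, 0.01. The cytoplasmic or mixed lncRNAs were all below 0, with -0.28 for OIP5-AS1, -0.55 for TUG1, -1.57 for NORAD and -1.97 for FGD5-AS1. NORAD and FGD5-AS1 were past 2-fold lower, at 2.97-fold and 3.93-fold below the control pulldown, as were 3.17% of all genes, and no member was past 2-fold higher, against 2.50%. Under total counts all genes shifted upward by 0.16, and 532 were higher and 262 lower (316 and 402 under size factors). The 4 cytoplasmic or mixed lncRNAs stayed below 0 there, with OIP5-AS1 at -0.13 and TUG1 at -0.39.

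Between the inputs, which hold the RNA of lysates freed of nuclei, only FGD5-AS1 differed past 2-fold. Its normalised count was 10016 after miR-491-5p and 4014 after the control, a log2 ratio of 1.32 (1.26 to 1.38). Among all genes 0.727% were past 2-fold higher and 0.513% lower. FTX followed at 0.60 (0.14 to 1.05), with few counts, and MALAT1 at 0.39 (0.36 to 0.41). OIP5-AS1 had 0.24, KCNQ1OT1 0.22 (-0.07 to 0.51), NORAD 0.20, NEAT1 0.16 and TUG1 0.01 (-0.05 to 0.07). All 8 values were above 0 (TUG1 was at -0.01 under total counts), with a median of 0.23 against -0.01 for all genes and 0.06 for the other lncRNA genes. NR2C2, which shares 155 exon bases with FGD5-AS1 on the opposite strand and was looked up after the values were seen, had an input ratio of 0.02 and bead values of 0.73 and 0.77.

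The enrichment that the design text defines divides the pulldown ratio by the input ratio, which is also the miR-491-5p bead value over the control bead value. It shares its libraries with the other ratios and adds no separate measurement. None of the 8 was enriched past 2-fold, against 4.46% of all genes, and FGD5-AS1 and NORAD were depleted past 2-fold, against 5.32%. FGD5-AS1 had an enrichment of -3.29 (-3.36 to -3.23), or 9.80-fold lower, and lay at percentile 0.0750 of all genes. Both parts went into that value, since FGD5-AS1 was lower in the miR-491-5p pulldown and higher in the miR-491-5p input. NORAD had -1.77 (-1.80 to -1.75), nearly all of it from the pulldowns.

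Of the other 6, TUG1 had an enrichment of -0.56 and OIP5-AS1 of -0.53, while MALAT1 had -0.21 (-0.25 to -0.18). NEAT1 at 0.13 (-0.01 to 0.28), KCNQ1OT1 at -0.00 (-0.31 to 0.31) and FTX at -0.37 (-0.86 to 0.12) had intervals that include 0. At this depth no enrichment or depletion of these 3 was detectable beyond counting error. Scaling by total counts raised the all-gene median by 0.18, with 896 genes past 2-fold higher and 447 lower (565 and 673 under size factors), and the calls of the 8 in enrichment were the same. There NEAT1 was at 0.31, with an interval that excludes 0, and MALAT1 was at -0.03.

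**Figure D4:**
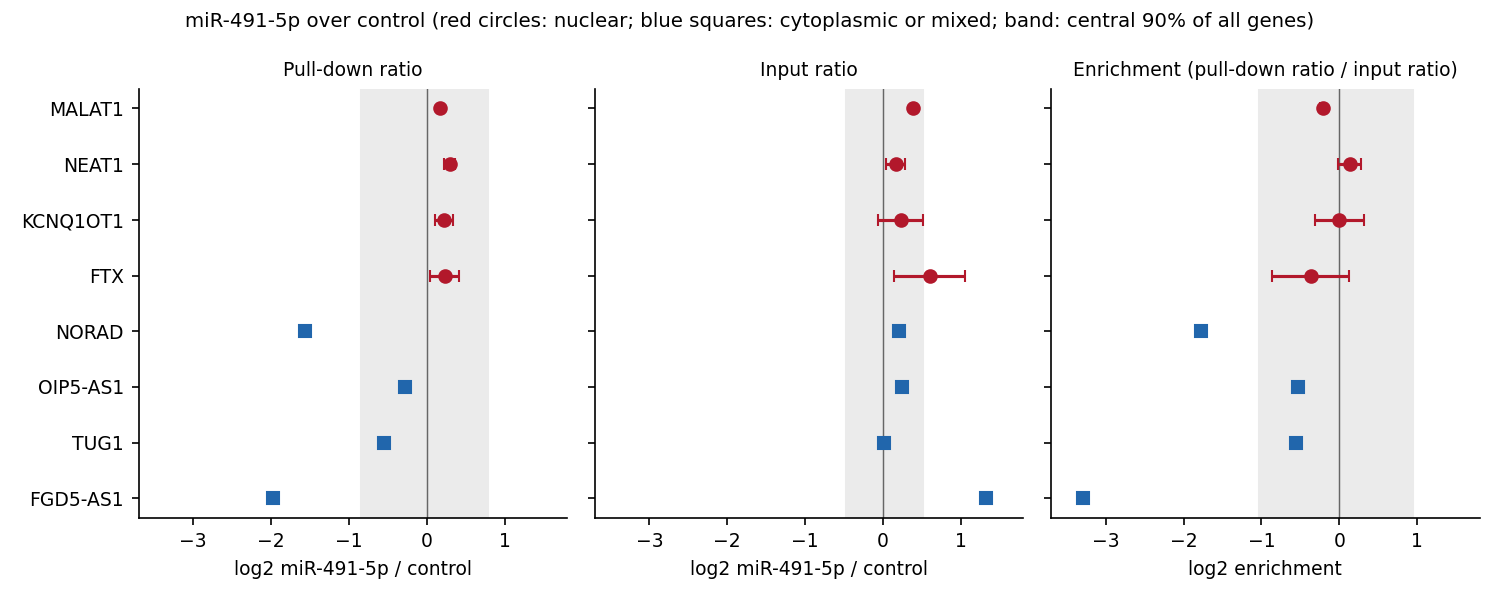
Log2 pulldown ratio, input ratio and enrichment of each lncRNA, miR-491-5p over control, with 95% counting intervals as horizontal bars (hidden by the symbol where short) and the central 90% of all genes as a grey band. The nuclear lncRNAs, TUG1 and OIP5-AS1 lie within the band in pulldown ratio and enrichment, and NORAD and FGD5-AS1 lie left of it in both. In input ratio FTX and FGD5-AS1 lie right of the band.

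By class, the medians of the 4 nuclear and the 4 cytoplasmic or mixed lncRNAs were 0.22 and -1.06 in pulldown ratio and -0.11 and -1.17 in enrichment. The values of the classes did not overlap in either, with nuclear enrichments from -0.37 to 0.13 and cytoplasmic or mixed ones from -3.29 to -0.53, but the interval of FTX reaches below the value of OIP5-AS1 and the members were chosen with these values known. The nuclear minus cytoplasmic or mixed difference was 1.28 in pulldown ratio and 1.06 in enrichment. Without NORAD or without FGD5-AS1 it was 0.77 and 0.45, and without OIP5-AS1 or without TUG1 the enrichment difference was 1.67. On the miR-491-5p beads the class medians were 1.53 and 0.46, with NORAD at 1.61 inside the nuclear range of 1.17 to 2.07. On the control beads they were 1.73 and 2.31, and the order was set by single members: without NORAD or without FGD5-AS1 the nuclear median was the higher by 0.49 on the log2 scale. In the inputs the medians were 0.30 and 0.22 and the classes overlapped.

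Other lncRNAs of known location had mixed values. Of 10 other nuclear lncRNAs listed, 9 had a match in the table and 3 passed the count minimum, while MEG3 and HOTAIR had 0 counts in every library. LINC-PINT was past 2-fold higher on both kinds of beads, at 1.36 with miR-491-5p, against 1.08 with the control. JPX (-0.46 and -0.09) and HOTAIRM1 (-0.46 and -0.93) lay below their inputs, and their enrichments of -0.37 and 0.46 were the largest of the list. Of 13 other cytoplasmic lncRNAs 10 had a match and 9 passed, with median bead values of -0.36 with miR-491-5p, against -0.21 with the control. DANCR was lower on both at -1.27 and -1.36. The snoRNA hosts SNHG8 at -1.08 and ZFAS1 at -1.06 were past 2-fold lower with miR-491-5p, against -0.86 and -0.92 with the control. EPB41L4A-AS1 at -0.87 and SNHG8 at -0.22 had the largest enrichments of that list. In pulldown ratio, 2 of the 3 other nuclear lncRNAs that passed lay above 0, and JPX lay below it at -0.21. Above 0 lay 6443 of the 12662 genes tested and 271 of the 531 other named lncRNA genes. Of the 9 other cytoplasmic ones 2 lay above 0, GAS5 at 0.21 and DANCR at 0.14, where the median was -0.17. That count depends on the scaling, since ZFAS1 and SNHG12, both at -0.10, were nearer 0 than the upward shift of 0.16 under total counts.

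Proteins that work with these lncRNAs were followed through their mRNAs. For 10 paraspeckle and speckle proteins, 9 passed the count minimum, with median bead values of -0.20 with miR-491-5p, against -0.30 with the control. SRRM2, a speckle scaffold protein, had 0.96 with miR-491-5p and was past 2-fold higher on the control beads at 1.37. NONO at 0.57 and SRRM2 at -0.41 had the largest enrichments, where the list's median was 0.11. SRSF1 is among those counted as not passing because its position matched a locus with 0 counts, and that match is uncertain. PUM2 had 0.38 on the miR-491-5p beads and was past 2-fold higher on the control beads at 1.09, with an enrichment of -0.71. ELAVL1, which encodes HuR, lay below its input at -0.55 with miR-491-5p, against -0.75 with the control, with an enrichment of 0.21.

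Of 9 genes listed as overlapping or near the 8 lncRNAs, 8 had a match and 5 passed the count minimum. OIP5, on the strand opposite to OIP5-AS1, had bead values of -0.86 with miR-491-5p, against -0.78 with the control. EPB41L1, listed as a gene near NORAD, was past 2-fold higher in the miR-491-5p pulldown, with 3928 normalised counts against 1586 in the control pulldown and an enrichment of 1.5, the opposite direction to NORAD. MORC2, listed beside TUG1, had an enrichment of 0.53. FRMD8 had -0.29.

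The genes whose pattern was most like each lncRNA were taken as the 2 smallest Euclidean distances over 3 log2 ratios (input ratio and both bead values), among 8433 named genes that averaged 500 or more normalised counts. For MALAT1 these were ASPM at 0.22 and NEB at 0.23, and for NEAT1 DAB2IP at 0.17 and SNX33 at 0.23. OIP5-AS1 and TUG1 had very close counterparts, with IVNS1ABP at 0.03 for the first, and CUTALP at 0.07 and YTHDF3 at 0.08 for TUG1. YTHDC2 was nearest to both KCNQ1OT1 (0.40) and FTX (0.36), followed by SNORD17 (0.43) and CHD9 (0.49). NORAD had the most distant counterparts, TNRC6C at 0.56 and BMP2 at 0.66. For FGD5-AS1 they were C3orf52 at 0.38 and PIAS3 at 0.40. Their input ratios were 1.42 and 1.23 and their control bead values 3.21 and 3.38, and such likeness follows from how they were picked. Among the 8 themselves the closest pair was MALAT1 with NEAT1 at 0.35, then KCNQ1OT1 with FTX at 0.47, and the next was NEAT1 with TUG1 at 0.61. With 4 libraries, these distances describe the libraries only.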

How the data were processed

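Gene-level read counts were analysed as the authors deposited them, without normalization, for 4 libraries of the IGROV1-R10 line. Counting used featureCounts 1.5.0-p1 and the exons of GENCODE release 24, per the file headers, without strand, skipping any reads marked as duplicates and reads on several genes or places. Whether duplicates had been marked is not given in the sources used here, and the effect of skipping them on abundant RNAs such as NORAD was not tested. The libraries were made with a stranded total RNA kit, per the labels' protocols, and the submitters' processing notes name STAR, DESeq2 1.10.1 and GRCh38. Size factors came from DESeq2 1.42.0, with total counts and edgeR 4.0.16 TMM as alternatives. The standard error of a log2 ratio came from the Poisson error of its counts, each plus 0.5, and intervals span 1.96 standard errors on each side. The ratio and call functions were checked on simulated Poisson counts, with calls at 1.5-fold. That check covers counting error only. No test was made, since each group has 1 library and the members and gene lists were chosen with earlier results of these data known. A pulldown and its input share a lysate, and both pairs are given side by side.

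Genes other than the 8 were named by the position of RefSeq genes on GRCh38.p14, in 4 stages: both ends within 20 bp; the best overlap of at least 0.4 of the joint span, 0.2 above the next and with an end within 2000 bp; 1 end within 20 bp, for protein-coding genes; and the same for other genes that overlap by 0.1 or more. Both ends were required of RefSeq genes shorter than 300 bp. This named 11707 of the 12662 genes tested, with 97.1% of their counts. The text names the 8 members, the 2 largest absolute enrichments of each list and list members past 2-fold, and the 2 genes most like each member. Other list members named were chosen after their values were seen. A few genes that these rules would name are not reported here. The search for seed matches in the lncRNAs was not done, as no genome sequence was used here.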

Additional observations from a re-analysis of the deposited data

Results flagged for a closer look

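OIP5-AS1 lay below its input on the miR-491-5p beads (-0.11) and above it on the control beads (0.42), a difference of -0.53 on the log2 scale. The counting interval of each value excludes 0, the difference was not tested, as each group has 1 library, and under total counts both values were above 0.

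For 3 lncRNAs the comparison of miR-491-5p with the control had opposite signs in the pulldowns and in the inputs, with intervals that exclude 0 on both sides. The pulldown ratio and input ratio were -1.57 and 0.20 for NORAD (difference -1.77), -0.28 and 0.24 for OIP5-AS1 (difference -0.53), and -1.97 and 1.32 for FGD5-AS1 (difference -3.29). These differences were not tested.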

How the results depend on the processing

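No paired analysis was possible because each group has 1 library. Of the 40 ratios of the 8 lncRNAs, a pseudocount of 5 moved none beyond its counting interval and TMM moved 4. Total counts moved 27 and reversed 1, OIP5-AS1 on the miR-491-5p beads, at 0.21. TUG1 on those beads, at 1.00, was the one call of the 8 that changed under these 3 settings. Under total counts the median of the 8 was 1.53 on the miR-491-5p beads, 1.87 on the control beads and 0.10 in pulldown ratio (main value -0.06), and genes past 2-fold higher and lower were 1314 and 130 on the miR-491-5p beads, 532 and 262 in pulldown ratio and 896 and 447 in enrichment, with 1393 and 821 on the control beads (12705 genes). With means in place of medians the nuclear minus cytoplasmic difference was -0.10 in the inputs, -0.45 on the control beads and 1.42 in enrichment. Leaving out 1 member at a time it ran from 0.80 to 1.35 on the miR-491-5p beads, -1.65 to 0.49 on the control beads, 0.77 to 1.79 in pulldown ratio, 0.45 to 1.67 in enrichment and -0.00 to 0.16 in the inputs. Median levels of the 8 per kb in the miR-491-5p pulldown and input and the control pulldown and input were 27.4, 19.04, 32.8 and 12.8 under total counts, and 27.4, 23.1, 36.9 and 16.1 on exon bases shared with no other gene, an alternative chosen after seeing the data. Genes past 2-fold, higher and lower, with a count minimum of 10 (17232 genes) were 409 and 366 in the input ratio, 2098 and 896 on the miR-491-5p beads, 2480 and 1694 on the control beads, 823 and 807 in pulldown ratio and 1094 and 1137 in enrichment. In the same order they were 479 and 476, 2624 and 1023, 2850 and 1852, 1175 and 1199, and 1275 and 1302 with no minimum (35012 genes). With a 1.5-fold limit (12662 genes) they were 436 and 384, 1583 and 2628, 2236 and 3411, 1270 and 1349, and 1677 and 1778. The cause of these changes was not tested beyond the construction of each alternative, and libraries of pooled RNA leave variation between experiments unmeasured.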
